A study of Mus musculus with 11 samples.

Results

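Serum amyloid A, complement and other acute-phase genes were followed in 11 RNA-seq libraries of mouse embryonic stem cells (mESCs) and mouse embryonic fibroblasts (MEFs) with and without Atxn7l3. The genes are Saa1, Saa2, Saa3, Lcn2, C3, C4b, Cfb, Serping1 and Hp, and they make 9 of the 31518 genes of the mESC table and of the 29450 genes of the MEF table. They were selected by a rule that used measured values, the rise of Saa3 in Atxn7l3-/- cells of both types, so their differences between genotypes are given below as a description and without a p-value. The comparison of WT MEFs with WT mESCs was not the contrast of that rule and was tested, except for Saa3, whose own WT levels entered the rule.

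ATXN7L3 is an adaptor of USP22, the deubiquitylating enzyme of the SAGA complex, and of the related USP27X and USP51, which act outside SAGA. These enzymes remove ubiquitin from histone H2B, and the series asked what loss of ATXN7L3 does to transcription in both cell types. All cells carried a mixed DBA/2 x C57BL/6 background. The 4 groups were WT mESCs (n = 2), Atxn7l3-/- mESCs (n = 3), WT MEFs (n = 3) and MEFs labelled Atxn7l3-/- (n = 3), with no treatment in any group. The null allele was constitutive, not driven by a Cre in 1 cell type. The mESCs were derived from individual blastocysts, started on feeder cells and then kept without feeders in serum medium with LIF, PD0325901 and CHIR99021. The MEFs were grown from E10.5 embryos after removal of the head and the gut, so they are mixed cultures of the cells of the remaining carcass, and 1 culture came from each embryo.

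The acute-phase response is the change in plasma proteins that follows injury or infection. Interleukin-1, interleukin-6 and tumour necrosis factor act through NF-kB, STAT3 and C/EBP factors on promoters in hepatocytes, and some of these genes, Saa3 above all, are also expressed outside the liver, in macrophages, fat and mesothelium. Complement is a cascade of plasma proteases in which the classical, lectin and alternative pathways meet in the cleavage of C3, and inhibitors in plasma and on cell membranes hold it in check. Fibroblasts are a known source of several early complement components, whereas pluripotent cells are not known for either system.

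The libraries held 34515342 to 49602605 counts, and 3 counts corresponded to 0.0571 to 0.0935 CPM, the read count per 1000000 counts of the library. CPM values are scaled by library totals and TMM factors over all 11 libraries. The targeted gene was checked first. In mESCs Atxn7l3 stood at 196 and 202 CPM in WT and at 3.33, 1.60 and 0.831 CPM in Atxn7l3-/-. In MEFs it stood at 86.4, 117 and 104 CPM in WT and at 56.4, 55.3 and 73.2 CPM in the libraries labelled Atxn7l3-/-, a mean of 60.5% of the WT mean. The MEF libraries were therefore lower than WT in each case without the near-complete loss seen in mESCs, and they are called by their label throughout. By the study's methods the embryos were genotyped from their yolk sacs. Whether these cultures held cells with an intact allele was not tested here, so each MEF difference below is one between libraries with different labels. The 6 pluripotency markers summed to 3255 to 4083 CPM in mESCs and to 0.511 to 49.4 CPM in MEFs, while the 8 fibroblast markers summed to 7422 to 46751 CPM in MEFs. In these bulk cultures fewer cells of a type and less RNA per cell cannot be told apart.

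A gene counted as selected between genotypes if its Benjamini-Hochberg adjusted p in edgeR was 0.05 or less, its log2 fold change at least 1 in size and its median over the libraries of the cell type above 10 normalized reads per kb of transcript. By these criteria 1 of the 9 genes, Saa3, was higher in Atxn7l3-/- mESCs, where 2.76% of all genes tested were selected as higher and 1.92% as lower. In MEFs labelled Atxn7l3-/-, Saa3 and Serping1 were selected as higher, against 4.34% of all genes tested selected as higher and 3.26% as lower. The rule took Saa3 for its rise in both cell types, so its selection here was part of that choice and is not a result. None of the 9 was selected as lower in either cell type by edgeR. In each cell type 5 of the 9 had enough counts to be tested, namely Saa1, Saa2, Saa3, C4b and Serping1 in mESCs and Saa3, C3, C4b, Serping1 and Hp in MEFs. The median log2 fold change of all genes tested was 0.04 in mESCs and -0.06 in MEFs.

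**Figure D1:**
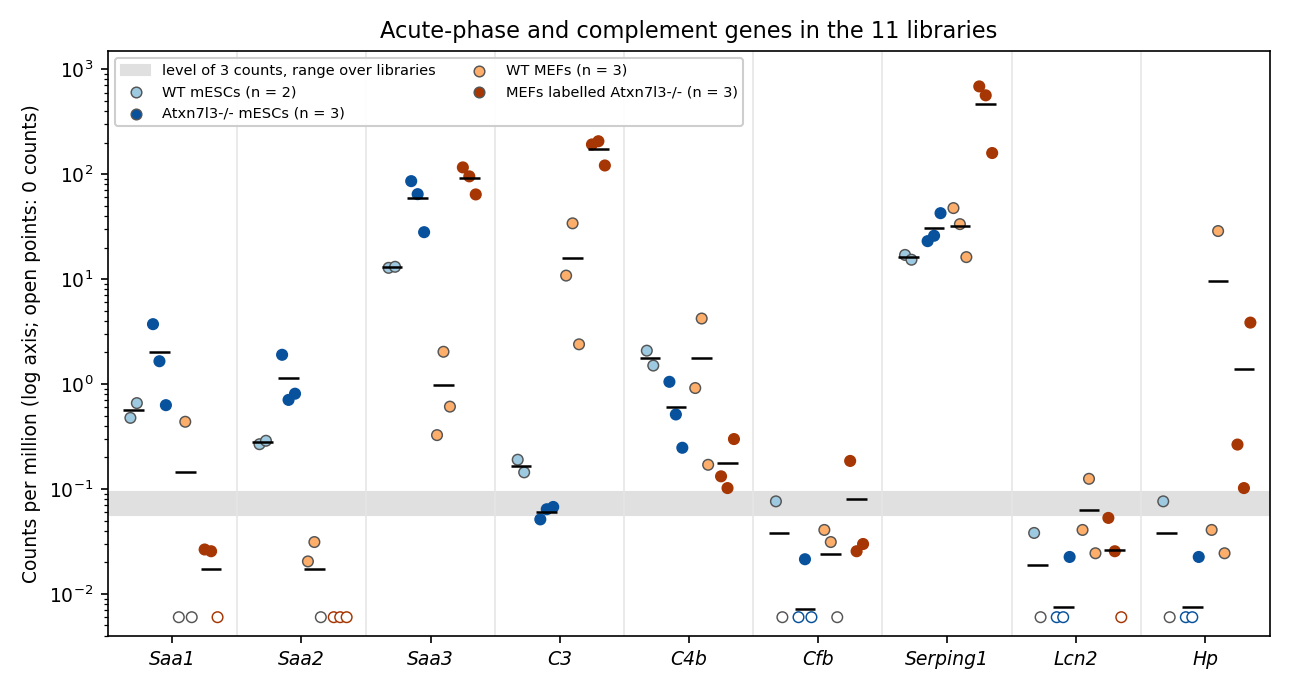
Level of each of the 9 genes in every library, in CPM on a log axis. Each point is 1 library, bars are group means, open points at the bottom are libraries with 0 counts, and the grey band is the level of 3 counts. Saa3 and Serping1 lie higher in each library labelled Atxn7l3-/- than in each WT library of the same cell type, Saa3 at 28.0 to 85.8 against 12.8 and 13.1 CPM in mESCs and at 64.1 to 116 against 0.326 to 2.03 CPM in MEFs. The share of all genes without overlap of the genotypes was not counted.

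Saa3 belongs to the serum amyloid A family of acute-phase apolipoproteins. It lies on chromosome 7 at 46711998 to 46715700 on the minus strand (mm10). In WT mESCs it stood at 12.8 and 13.1 CPM, and in Atxn7l3-/- mESCs at 85.8, 64.5 and 28.0 CPM. In WT MEFs it stood at 0.326, 2.03 and 0.609 CPM, and in MEFs labelled Atxn7l3-/- at 116, 95.3 and 64.1 CPM. The genotypes did not overlap in either cell type, and the lowest of the 6 libraries labelled Atxn7l3-/- was mESC replicate 3. The log2 fold change was 2.25 (SE 0.45) in mESCs and 6.55 (SE 0.76) in MEFs, or 4.74-fold and 93.9-fold.

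Among the 4 groups Saa3 was lowest in WT MEFs, next in WT mESCs, and highest in the groups labelled Atxn7l3-/-. The means were 0.987 ± 0.911 CPM (SD, n = 3), 12.9 ± 0.181 CPM (SD, n = 2), 59.4 ± 29.2 CPM (SD, n = 3) for Atxn7l3-/- mESCs and 91.9 ± 26.4 CPM (SD, n = 3) for MEFs labelled Atxn7l3-/-. The ranges of the last pair overlapped. The difference between the MEF and the mESC effect was 4.37 (SE 0.86) on the log2 scale, and the WT levels from which those effects were measured themselves differed between the cell types. In mESCs the gene no longer met the criteria without WT replicate 1 (log2 fold change 2.24), without WT replicate 2 (2.24) or without Atxn7l3-/- replicate 1 (1.87). The MEF value lay between 6.13 and 7.62 with single libraries left out.

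Other properties of the mESC libraries moved with this gene. Ddx3y, a Y-linked gene, stood at 80.3 and 175 CPM in the WT libraries and at 2.95, 0.791 and 192 CPM in the Atxn7l3-/- libraries. The 2 libraries with the highest Saa3 were thus those with little Ddx3y. Replicate 3, with Saa3 at 28.0 CPM, also had the Y-linked Eif2s3y and Uty at 179 and 47.0 CPM (42.2 and 125, and 17.4 and 38.6 CPM, in WT), but Kdm5d, Y-linked as well, at 0.584 CPM against 5.90 and 22.8 CPM in WT. The 8 fibroblast markers, of which 2 of the 7 tested were selected as higher, summed to 22.1 and 97.5 CPM in WT and to 272 to 399 CPM in Atxn7l3-/- mESCs. The part of sex or of fibroblast-like cells in the mESC differences was not tested.

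Saa1 and Saa2 encode the serum amyloid A proteins made by the liver in inflammation, and they lie beside Saa3 on chromosome 7, Saa1 at 46740497 to 46742980 on the minus strand and Saa2 at 46751790 to 46754313 on the plus strand. Their transcripts are 94.4% identical and share 9.1% of the 50-base windows of Saa1, so the counts of each are uncertain. Saa1 stood at 0.476 and 0.658 CPM in WT mESCs and at 3.72, 1.65 and 0.629 CPM in Atxn7l3-/- mESCs. The genotypes overlapped through replicate 3, with a log2 fold change of 1.87 (SE 0.79). Saa2 stood at 0.267 and 0.288 CPM in WT and at 1.90, 0.706 and 0.809 CPM in Atxn7l3-/- mESCs, with no overlap and a log2 fold change of 2.08 (SE 0.66). Neither met the criteria, although Saa2 did under DESeq2 (2.05) and with no filter on low counts (2.09). Summed over both genes, the level was 0.743 to 0.945 CPM in WT and 1.44 to 5.62 CPM in Atxn7l3-/- mESCs.

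In MEFs both liver-type genes were close to absent. Saa1 had 0, 14 and 0 counts in WT MEFs and 1, 1 and 0 counts in those labelled Atxn7l3-/-. Saa2 had 1, 1 and 0 counts in WT and 0 counts in all 3 libraries labelled Atxn7l3-/-, which allows up to 0.0766 to 0.0896 CPM. Saa3 thus rose in these MEFs while its neighbours had at most 1 count in any library of the same group. Intervals and limits of this kind cover counting error only.

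The promoters of the serum amyloid A genes and of C3 are shown because Saa3 and C3 were higher in each MEF library labelled Atxn7l3-/- while the neighbours Saa1 and Saa2 were near 0 there. RefSeq windows (GRCm38.p6), from 250 bases before to 50 after the RefSeq start, were found for Saa1, Saa2, Saa3, Lcn2 and C3, and none for C4b, Cfb, Serping1 and Hp. The stretches printed, 5′ to 3′ on the strand of the gene, end at the start that the deposited tables give. They are Saa3 at chr7:46715701-46715926 (minus strand), Saa1 at chr7:46742981-46743230 (minus), Saa2 at chr7:46751583-46751789 (plus) and C3 at chr17:57228137-57228386 (minus). Capitals mark matches to the C/EBP letters TTNNGNAA on either strand.
Saa3: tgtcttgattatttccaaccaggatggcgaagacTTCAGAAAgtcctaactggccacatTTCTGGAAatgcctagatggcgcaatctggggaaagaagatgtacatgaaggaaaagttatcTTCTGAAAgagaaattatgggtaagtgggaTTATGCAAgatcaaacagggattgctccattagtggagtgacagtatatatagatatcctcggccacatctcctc
Saa1: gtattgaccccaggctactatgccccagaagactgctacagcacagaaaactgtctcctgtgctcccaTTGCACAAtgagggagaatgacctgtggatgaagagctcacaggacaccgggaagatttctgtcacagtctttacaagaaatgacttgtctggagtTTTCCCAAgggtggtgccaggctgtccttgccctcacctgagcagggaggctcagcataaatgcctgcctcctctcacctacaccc
Saa2: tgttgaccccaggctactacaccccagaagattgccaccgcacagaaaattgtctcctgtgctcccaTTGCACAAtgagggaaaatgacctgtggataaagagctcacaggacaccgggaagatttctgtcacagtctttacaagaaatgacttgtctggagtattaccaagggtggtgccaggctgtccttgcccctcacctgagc
C3: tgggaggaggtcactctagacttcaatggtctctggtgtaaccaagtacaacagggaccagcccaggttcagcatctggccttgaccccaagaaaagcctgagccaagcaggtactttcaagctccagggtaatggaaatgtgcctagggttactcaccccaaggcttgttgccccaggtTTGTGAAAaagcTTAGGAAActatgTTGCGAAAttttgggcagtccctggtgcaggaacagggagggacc
Saa3 held 4 matches, C3 held 3, Saa1 held 2 and Saa2 held 1, and the Lcn2 window, not printed, held 1. Of 32851 promoter windows of the same length, 40.7% held at least 1 match, 3.6% held 3 or more and 0.85% held 4 or more. The 3 matches of C3 lay within the 70 bases before its start, and the one at position -45 matched on both strands. The letters GGGNNTTTC for NF-kB (4.4% of all windows), TTCNNNGAA for STAT (8.3%) and TGANTCA for AP-1 (7.8%), searched on both strands, were in none of these windows. Only these exact patterns were searched, so variants of the sites would be missed. TATAAA, searched on the sense strand and held by 8.3% of all windows, was found in the C3 window alone, 14 bases after the start. The printed Saa3 stretch holds the run tatatata, which these letters do not match. A match is a run of letters and not a bound site, and these data hold no measurement of binding at it.

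C3 is the component on which all complement pathways converge, and it lies on chromosome 17 at 57203970 to 57228136 on the minus strand. In mESCs it was nearly absent, with 10 and 7 counts in WT and 2, 3 and 3 counts in Atxn7l3-/-. In MEFs it stood at 10.8, 34.0 and 2.39 CPM in WT and at 192, 206 and 121 CPM in the libraries labelled Atxn7l3-/-. The lowest of these lay above the highest WT library, and the SD of WT exceeded its mean, at 15.7 ± 16.3 CPM (SD, n = 3) against 173 ± 45.5 CPM (SD, n = 3). The log2 fold change was 3.45 (SE 0.88) and missed the criteria by its adjusted p.

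That call depended on the treatment of the spread. In MEFs the replicate numbers were taken to pair the libraries, though the labels state no pairing. C3 was selected once that number entered the fit as a block, at a log2 fold change of 4.10. It was also selected under DESeq2 (3.47), with no filter on low counts (3.45), in 1 fit of all 11 libraries (3.46) and without WT replicate 2 (4.70). The other single libraries left it unselected, with log2 fold changes of 2.95 to 3.66. The difference between the MEF and the mESC effect was 4.87 (SE 1.39) for C3, of which the mESC side rests on at most 10 counts a library.

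C4b encodes complement component C4, which the C1s and MASP2 proteases cleave on the way to C3, and it lies in the class III region of the major histocompatibility complex, on chromosome 17 at 34728380 to 34743882 on the minus strand. Its transcript is 96.1% identical to that of C4a and shares 35.2% of its 50-base windows, so its counts are uncertain. In mESCs it stood at 2.08 and 1.5 CPM in WT and at 1.05, 0.513 and 0.247 CPM in Atxn7l3-/-, lower in each Atxn7l3-/- library, with a log2 fold change of -1.52 (SE 0.65). In MEFs it stood at 0.916, 4.21 and 0.170 CPM in WT and at 0.132, 0.102 and 0.299 CPM in the libraries labelled Atxn7l3-/-. Here the genotypes overlapped, and the log2 fold change was -3.29 (SE 1.17). It met the criteria in neither cell type, though DESeq2 selected it in MEFs (-3.30), and without WT replicate 2 the MEF value was -1.61.

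Cfb encodes factor B, the protease of the alternative pathway, and lies close to C4b at 34856374 to 34862518 on the minus strand. It had 4 and 0 counts in WT and 0, 1 and 0 counts in Atxn7l3-/- mESCs. In MEFs it had 2, 1 and 0 counts in WT and 7, 1 and 1 counts in those labelled Atxn7l3-/-. A difference was not detectable at this depth, and per length the MEFs labelled Atxn7l3-/- held at most 4.10 normalized reads per kb of Cfb against at least 7625 of C3.

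Serping1 encodes the C1 inhibitor, which blocks the C1r and C1s proteases of the classical pathway and the contact system. It lies on chromosome 2 at 84765387 to 84775444 on the minus strand. In mESCs it stood at 17.0 and 15.3 CPM in WT and at 23.0, 25.9 and 42.5 CPM in Atxn7l3-/-. The Atxn7l3-/- libraries lay above WT, with a log2 fold change of 0.97 (SE 0.33), which missed the criteria by its adjusted p as well as by its size. It was not selected either where leaving out WT replicate 1 or Atxn7l3-/- replicate 1 or 2 brought the value to 1.05, 1.14 or 1.1. Its highest library was replicate 3, in which Saa3 and Saa1 were lowest among the Atxn7l3-/- libraries. In MEFs it stood at 47.5, 33.4 and 16.2 CPM in WT and at 686, 564 and 159 CPM in the libraries labelled Atxn7l3-/-, with a log2 fold change of 3.82 (SE 0.66).

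The MEF means were 32.4 ± 15.7 CPM (SD, n = 3) and 470 ± 276 CPM (SD, n = 3), and no library overlapped. Serping1 kept the criteria in MEFs with the replicate block (3.73) and without replicate 3 of the group labelled Atxn7l3-/- (4.26). It lost them without WT replicate 1 (4.23), WT replicate 2 (3.87), WT replicate 3 (3.52), or replicate 1 (3.48) or 2 (3.67) of the group labelled Atxn7l3-/-. The difference between the MEF and the mESC effect was 2.94 (SE 0.76).

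**Figure D2:**
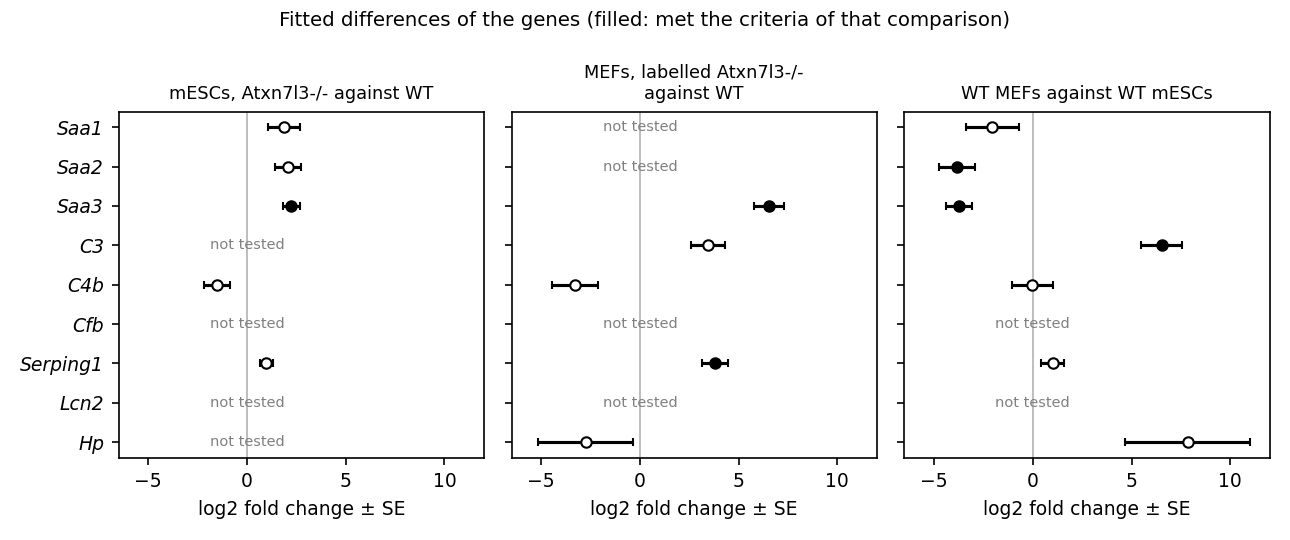
Fitted log2 fold change of each gene with its standard error in the 3 comparisons, with filled points for genes that met the criteria of that comparison. Saa3 stands at 2.25 in mESCs and 6.55 in MEFs, C3 and Serping1 at 3.45 and 3.82 in MEFs, and C3 at 6.52 and Saa3 at -3.75 between the WT cell types.

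Lcn2 encodes lipocalin 2, which binds bacterial siderophores and is a usual companion of Saa3 in inflamed tissue. It lies on chromosome 2 at 32384633 to 32388252 on the minus strand. It had at most 4 counts in any of the 11 libraries, and it was tested in no comparison. Its highest level was 0.125 CPM, in WT MEF replicate 2, and per length the 6 libraries labelled Atxn7l3-/- held at most 2.28 normalized reads per kb of Lcn2 against 2216 to 7819 of Saa3.

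Hp encodes haptoglobin, the plasma protein that binds free haemoglobin, and lies on chromosome 8 at 109575128 to 109579172 on the minus strand. It had at most 4 counts in any mESC library. In MEFs it stood at 0.0407, 28.7 and 0.0244 CPM in WT and at 0.265, 0.102 and 3.85 CPM in the libraries labelled Atxn7l3-/-. A single library, WT replicate 2, carried nearly all of the WT signal, with 922 counts against 2 and 1. The log2 fold change of -2.74 (SE 2.41) turned to 1.58 with the replicate block and to 5.31 without WT replicate 2, so no direction can be given for Hp.

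WT MEF replicate 2 stood apart for liver-type RNA. Its 8 hepatocyte or visceral endoderm markers summed to 392 CPM, with 323 CPM of Alb, against 2.97 to 9.74 CPM in the other 5 MEF libraries. Among the WT MEFs this library also had the highest Saa1, Saa3, C3, C4b and Lcn2 and did not have the highest Serping1. The next library in order of hepatocyte markers, at 9.74 CPM, was replicate 3 labelled Atxn7l3-/-, which was also next in Hp. Without WT replicate 2 the Saa3 effect in MEFs was 7.62 and that of C3 4.70, both larger than with it.

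WT MEF replicate 3 differed from the other 5 MEF libraries in sex-linked RNA. It held 336 CPM of Xist and 0.244 CPM of Ddx3y, against at most 0.742 and at least 66.2 CPM in the others. Among the WT MEFs it had the lowest C3, Serping1 and C4b, at 2.39, 16.2 and 0.170 CPM. The part of sex in the MEF differences was not tested.

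Mesothelial markers moved with the genotype label in MEFs. The 6 markers (Msln, Upk3b, Lrrn4, Wt1, Krt19 and Upk1b) summed to 19.1 to 48.2 CPM in WT and to 5849 to 8758 CPM in the libraries labelled Atxn7l3-/-, and 5 of the 6 were selected as higher. Saa3, C3 and Serping1 were above every WT library in each of them. How many of all genes were so placed was not counted. The 7 epithelial markers summed to 3.48 to 6.64 CPM in WT and to 213 to 582 CPM in those labelled Atxn7l3-/-, with 2 of the 4 tested selected as higher. One gene, Krt7, carried that sum, at 450, 575 and 190 CPM in those labelled Atxn7l3-/-. In the same libraries Krt18 stood at 31.5, 5.31 and 22.8 CPM and Krt8 at 0.508 to 3.47 CPM. Epcam, Cdh1, Cldn4 and Krt5 were at 0.868 CPM or less in each of them. The part of mesothelial or epithelial cells in the MEF differences was not tested.

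The 10 macrophage markers summed to 1068, 1245 and 631 CPM in WT MEFs and to 6281, 2249 and 840 CPM in those labelled Atxn7l3-/-, with overlap and with none of the 10 selected by edgeR (1 at an unadjusted p under 0.05, and 1 selected by DESeq2). The order of the libraries labelled Atxn7l3-/- in this sum, highest in replicate 1 and lowest in replicate 3, was the order of Saa3 (116, 95.3 and 64.1 CPM) and of Serping1 (686, 564 and 159 CPM). The mesothelial sum had that order too (8758, 7324 and 5849 CPM), while C3 did not (192, 206 and 121 CPM). One gene, Lyz2, carried the macrophage sum, at 350 to 674 CPM in WT and at 5384, 2032 and 718 CPM in those labelled Atxn7l3-/-. The other 9 markers summed to 548, 571 and 281 CPM in WT and to 897, 217 and 122 CPM in those labelled Atxn7l3-/-, where replicates 2 and 3 lay below every WT library. The part of macrophages in the MEF differences was not tested. The 6 neutrophil markers were at 0.945 CPM or less in sum in every MEF library. Among the 8 fibroblast and the 5 endothelial markers none was selected in MEFs by edgeR, with 2 of each list at an unadjusted p under 0.05 and 1 higher and 1 lower of each by DESeq2.

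In mESCs the mesothelial sum overlapped between genotypes, at 82.8 and 258 CPM in WT and at 75.8 to 252 CPM in Atxn7l3-/-. The hepatocyte or visceral endoderm sum was 5.94 CPM or less in every mESC library, the neutrophil sum 0.123 CPM or less, and the macrophage sum 34.8 to 113 CPM with 4 of the 10 markers listed in the mESC table.

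**Figure D3:**
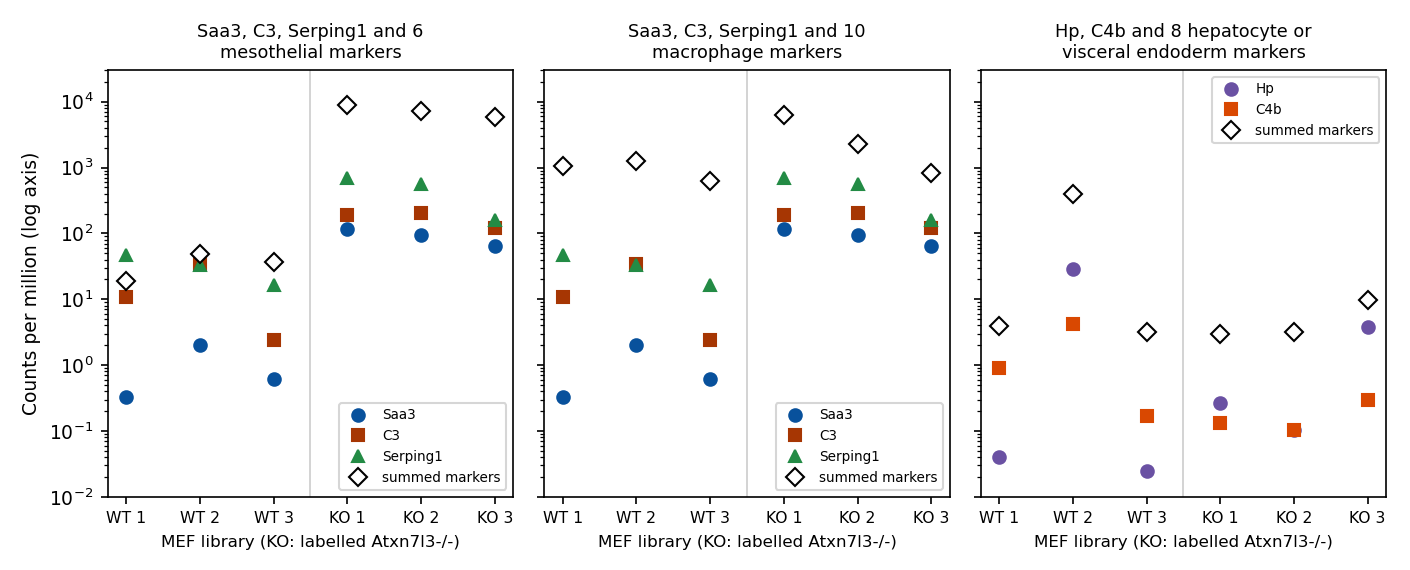
Genes and summed cell type markers in the 6 MEF libraries, in CPM on a log axis, with WT on the left of each panel and libraries labelled Atxn7l3-/- on the right. Saa3, C3, Serping1 and the mesothelial sum are all higher on the right, whereas Hp and the hepatocyte sum both peak in WT replicate 2, at 28.7 and 392 CPM.

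Between the WT cell types, tested over all 11 libraries, genes counted as called at an adjusted p of at most 0.05 and a log2 fold change of at least 1 in either direction. By that rule 24.2% of all genes tested were higher and 23.5% lower in MEFs, and of the 6 members tested besides Saa3, 1 was called higher and 1 lower. These were C3, which passed the count filter through MEF libraries alone, and Saa2, which passed it through mESC libraries alone. The direction of each call was thus largely set by the filter. Neither was tested where at least 10 counts were required in every library. C3 was higher in WT MEFs, at a log2 fold change of 6.52 (SE 1.06, adjusted p = 0.000562 in edgeR). Saa3, given as a description, had a log2 fold change of -3.75 (SE 0.66), at 0.326 to 2.03 CPM in WT MEFs and at 12.8 and 13.1 CPM in WT mESCs.

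Saa2 was called lower in WT MEFs (adjusted p = 0.00707 in edgeR). Since the MEFs held only 2 counts of it, the summed counts give a ratio of 16.9 in favour of WT mESCs with a 95% counting interval of 4.27 to 147 (exact binomial). Serping1 did not pass, at 1.00 (SE 0.58, adjusted p = 0.166 in edgeR), nor did Saa1, at -2.05 (SE 1.34, adjusted p = 0.214), and Saa1 was called lower without WT MEF replicate 2, the one WT MEF library with counts of it. C4b showed no direction, at -0.03 (SE 1.03, adjusted p = 0.986 in edgeR). Hp, at 7.84 (SE 3.18, adjusted p = 0.0573 in edgeR), again rested on WT MEF replicate 2. Its value was -0.22 without that library, while it was called higher without WT MEF replicate 1 (8.42), WT MEF replicate 3 (8.43) or replicate 3 of the MEFs labelled Atxn7l3-/- (7.84).

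Levels of different genes can be compared only per length. On the deposited scale of normalized reads per kb of median transcript length, WT mESCs held 993 to 994 of Saa3, 388 to 439 of Serping1, 82.9 to 117 of C4b, 18.2 to 19.3 of Saa2, 13.4 to 18.2 of Saa1 and 9.98 to 13.5 of C3. The ranges of Saa2, Saa1 and C3 met or overlapped. MEFs labelled Atxn7l3-/- held 7625 to 13062 of C3, 3642 to 15348 of Serping1 and 4413 to 7819 of Saa3, ranges that overlap. The order depends on the median transcript lengths used. These are short for Saa3 (555 bases), C3 (608 bases) and C4b (763 bases), which raises their values on this scale, and long for Saa1 (1527.5 bases). The Saa3 transcript used for the comparison of sequences has 2200 bases.

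The other genes of these systems were taken from lists by role that hold 125 genes besides the 9. In mESCs 75 of them were tested, 3 were selected as higher and 1 as lower in Atxn7l3-/-, and their median log2 fold change was 0.25. In MEFs 90 were tested, 6 were selected as higher and 4 as lower in the libraries labelled Atxn7l3-/-, with a median of 0.17. These counts are read beside the 2.76% and 1.92% of all genes in mESCs and the 4.34% and 3.26% in MEFs given above. A fit blocked on the replicate number selected 10 as higher and 7 as lower in MEFs, and that fit selected 4.93% as higher and 6.72% as lower among all genes tested.

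These counts moved with single libraries, as did those of all genes. In mESCs none of the 125 was selected in either direction without WT replicate 1, WT replicate 2 or Atxn7l3-/- replicate 1, with 4 higher and 2 lower without replicate 2 and 6 higher and 0 lower without replicate 3 of Atxn7l3-/-. Of all genes, 0 were selected without WT replicate 1 or without WT replicate 2, and 0 higher and 3 lower without Atxn7l3-/- replicate 1. In MEFs the counts were 2 higher and 1 lower without WT replicate 1, 9 and 2 without WT replicate 2, and 0 and 0 without WT replicate 3. Leaving out a library labelled Atxn7l3-/- gave 0 higher and 3 lower for replicate 1, 1 and 0 for replicate 2, and 6 and 4 for replicate 3. The same omissions gave, of all genes, 266 and 162, 443 and 254, and 118 and 68 for the WT replicates, and 157 and 88, 193 and 83, and 885 and 897 for those labelled Atxn7l3-/-.

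Of the 9 classical pathway genes, C2, the protease that C1s cleaves together with C4, was selected in MEFs. It stood at 0.463 to 1.22 CPM in WT and at 2.48 to 7.95 CPM in those labelled Atxn7l3-/- (log2 fold change 2.94, SE 0.66, adjusted p = 0.043). In mESCs C2 stood at 1.29 and 1.48 CPM in WT and at 3.67 to 11.9 CPM in Atxn7l3-/- without passing (2.35, SE 0.62, adjusted p = 0.0607). The proteases C1s1 and C1ra had MEF values of 2.70 (SE 0.87, adjusted p = 0.0914) and 1.93 (SE 0.86, adjusted p = 0.17) and did not pass. C1s1 stood at 4.6 to 51.6 CPM in WT MEFs and at 81.9 to 287 CPM in those labelled Atxn7l3-/-.

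The C1q chains are made by macrophages and also stand in the macrophage list. C1qa stood at 78.4, 86.2 and 45.7 CPM in WT MEFs and at 67.7, 5.16 and 5.59 CPM in those labelled Atxn7l3-/-. Its log2 fold change was -1.47 (SE 0.99, adjusted p = 0.333), and C1qb and C1qc did not pass either. The median over the 9 classical genes in MEFs was 1.93 with 1 selected as higher and 0 as lower. None of the 4 tested in mESCs was selected by edgeR, at a median of -0.61, with 1 at an unadjusted p under 0.05 and 1 selected by DESeq2.

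Among complement regulators, 11 of 17 were tested in each cell type. Cd55, the membrane inhibitor that dissociates C3 convertases, was selected as higher in both cell types. It went from 41.7 and 46.3 CPM to 86.1 to 91.7 CPM in mESCs (1.05, SE 0.19, adjusted p = 0.0287) and from 15.7 to 27.6 CPM to 47.1 to 96.5 CPM in MEFs (1.63, SE 0.38, adjusted p = 0.0451). The genotypes did not overlap in either. Cd59a, which blocks the membrane attack complex, was lower in MEFs, from 50.2 to 81.0 CPM to 18.3 to 32.4 CPM (-1.37, SE 0.29, adjusted p = 0.0394). In all 1 regulator was selected as higher and 0 as lower in mESCs, and 2 as higher and 1 as lower in MEFs, with list medians of 0.32 and -0.62.

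The lectin, alternative and terminal pathway lists and the complement receptors had no selected gene in either cell type by edgeR. In mESCs 2, 1, 2 and 0 of them had an unadjusted p under 0.05 and DESeq2 selected 0, 1, 1 and 0, all higher. In MEFs 1, 0, 1 and 0 had such a p and DESeq2 selected 1 terminal gene as lower. Their tested genes numbered 4, 1, 4 and 1 in mESCs and 5, 1, 2 and 5 in MEFs. The medians in MEFs were -1.06 for the lectin pathway and -2.94 for the terminal genes, and all 5 receptors had a positive log2 fold change with a median of 1.00. The receptors, such as C3ar1 for the C3a fragment, are myeloid genes. C3ar1 stood at 20.9 to 37.6 CPM in WT MEFs and at 20.7 to 182 CPM in those labelled Atxn7l3-/-.

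Among 27 other acute-phase proteins none was selected as higher in either cell type by edgeR, while DESeq2 selected 4 as higher in mESCs and 0 in MEFs, and 7 and 5 had an unadjusted p under 0.05 in either direction. A2m, a protease inhibitor of plasma, was lower in Atxn7l3-/- mESCs, from 49.6 and 179 CPM to 0.449 to 10.7 CPM (-4.49, SE 1.07, adjusted p = 0.0488). Lbp, the lipopolysaccharide-binding protein, was lower in MEFs labelled Atxn7l3-/-, from 7.91 to 14.3 CPM to 0.209 to 2.04 CPM (-3.32, SE 0.79, adjusted p = 0.0484). The median was 0.84 over 12 tested genes in mESCs and -2.02 over 15 in MEFs, where 5 of the 15 were positive. Saa4, the constitutive member of the serum amyloid A family, stood at 0.533 and 0.658 CPM in WT and at 6.28, 7.14 and 1.03 CPM in Atxn7l3-/- mESCs and did not pass (3.05, SE 0.85, adjusted p = 0.0688). It was highest in the same 2 libraries as Saa3.

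The cytokines and receptors that induce acute-phase genes numbered 21. None of the 16 tested was selected in mESCs by edgeR or DESeq2, with 3 at an unadjusted p under 0.05. In MEFs 3 of 18 were higher and 1 was lower by edgeR, and 6 and 2 by DESeq2. Tlr4, the receptor of lipopolysaccharide, went from 8.91 to 12.3 CPM to 24.2 to 52.4 CPM (1.99, SE 0.34, adjusted p = 0.0229). Il1rap, the shared subunit of interleukin-1 receptors, went from 22.2 to 50.3 CPM to 94.7 to 174 CPM (1.90, SE 0.37, adjusted p = 0.0325). The ligand Lif stood at 89.9, 19.6 and 41.4 CPM in WT and at 292, 184 and 247 CPM in those labelled Atxn7l3-/-, above every WT library, and did not pass (2.23, SE 0.55, adjusted p = 0.0529).

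Tnfrsf1b, a receptor of tumour necrosis factor, went from 12.5 to 20.7 CPM to 43.7 to 67.5 CPM (1.67, SE 0.29, adjusted p = 0.0246). Il17rc, a subunit of the interleukin-17 receptor, was the one lower gene, from 15.7 to 30.7 CPM to 3.73 to 4.45 CPM (-2.50, SE 0.34, adjusted p = 0.0147). The ligands Il6 and Tnf had overlapping ranges, Il6 with 4.32, 0.967 and 8.67 CPM in WT and 8.61, 2.68 and 16.0 CPM in those labelled Atxn7l3-/-, and Tnf with 5.24 to 14.9 and 4.72 to 20.1 CPM.

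Of the 18 transcription factors and feedback genes upstream, all were tested and none was selected in either cell type by edgeR. An unadjusted p under 0.05 was found for 0 in mESCs and 5 in MEFs, and DESeq2 selected 0 in mESCs and 1 higher and 1 lower in MEFs. Stat3 had log2 fold changes of 0.17 (SE 0.17) in mESCs and 0.21 (SE 0.20) in MEFs, and Cebpb of 0.25 (SE 0.57) and 0.06 (SE 0.72). The list median was -0.06 in mESCs and 0.07 in MEFs. RNA levels do not report the activity of these factors, which are switched by phosphorylation and nuclear entry.

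Among 7 receptors of serum amyloid A and lipocalin, Scarb1 and Lrp1, which both bind lipoproteins, were higher in Atxn7l3-/- mESCs. Scarb1 went from 63.6 and 68.7 CPM to 117 to 165 CPM (1.15, SE 0.22, adjusted p = 0.0317), and Lrp1 from 99.4 and 117 CPM to 180 to 277 CPM (1.07, SE 0.25, adjusted p = 0.0477). Slc22a17, the lipocalin 2 receptor, was lower in MEFs labelled Atxn7l3-/-, from 24.7 to 57.9 CPM to 1.81 to 7.26 CPM (-3.01, SE 0.60, adjusted p = 0.0338). None of these receptors was selected in both cell types.

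**Figure D4:**
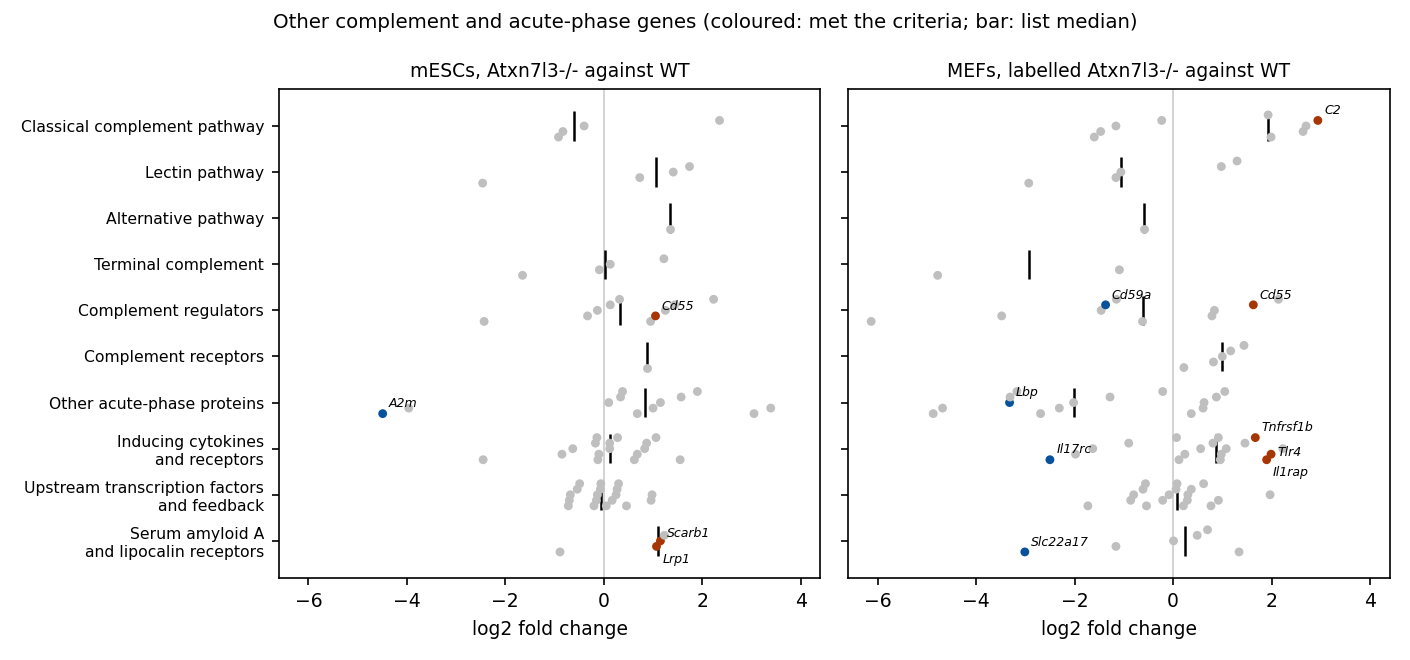
Log2 fold change of the other complement and acute-phase genes, 1 point per gene and 1 line per list, with the libraries labelled Atxn7l3-/- compared with WT in mESCs on the left and in MEFs on the right. Coloured points met the criteria (3 higher and 1 lower in mESCs, 5 of the 6 higher and 4 lower in MEFs), black bars are list medians over all tested genes, and 1 gene is not drawn.

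Between WT cell types the same 125 genes leaned to MEFs. Of 98 tested, 57 were called higher and 9 lower in WT MEFs, with a median log2 fold change of 2.72 against 0.00 for all genes tested and against the 24.2% and 23.5% of all genes given above. The higher genes came from most roles, with 2 of 6 classical, 4 of 7 lectin, 7 of 15 regulator, 5 of 5 receptor, 11 of 18 acute-phase, 12 of 18 cytokine and receptor, and 11 of 18 transcription factor genes. Cp, ceruloplasmin, stood at 47.2 to 711 CPM in WT MEFs and at 0.0206 CPM or less in WT mESCs (adjusted p = 0.000206 in edgeR). C5ar1, the receptor of C5a, stood at 12.5 to 21.5 CPM in WT MEFs and had 0 counts in WT mESCs (adjusted p = 0.00014 in edgeR). Cp and C5ar1 passed the count filter through MEF libraries alone, so the direction of their calls was largely set by the filter. Where at least 10 counts were required in every library, 31 of the list genes were called higher and 5 lower, with 2702 and 2480 of all genes.

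Fewer genes were higher in WT mESCs. Cpn1, the carboxypeptidase N subunit that inactivates C3a, stood at 11.7 and 19.5 CPM in WT mESCs and at 0.0407 to 0.717 CPM in WT MEFs (-5.70, SE 0.97, adjusted p = 0.000769). Osm, oncostatin M, an inducer of acute-phase genes, stood at 21.3 and 29.2 CPM in WT mESCs and at 0.0731 to 0.0935 CPM in WT MEFs (adjusted p = 6.09e-06 in edgeR), while its receptor gene Osmr was at 79.9 to 133 CPM in WT MEFs and at 0.719 CPM or less in WT mESCs. C4a and C7 were called lower in WT MEFs as well. Osm and C7 passed the count filter through mESC libraries alone, and Cpn1 nearly so. The direction of these calls was likewise largely set by the filter.

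Wider lists were taken from the annotation in the deposited tables and are read beside the same shares of all genes, 2.76% and 1.92% in mESCs and 4.34% and 3.26% in MEFs. Of genes annotated to the acute-phase response other than the 9, none of 12 tested was selected in mESCs by edgeR (5 at an unadjusted p under 0.05, and 3 higher by DESeq2), and 1 of 10 was higher and 2 were lower in MEFs. Of genes annotated to complement activation, 1 of 23 was higher and 1 lower in mESCs, and 3 of 29 were higher and 2 lower in MEFs. Of genes annotated to the inflammatory response, 15 of 332 (4.52%) were higher and 9 (2.71%) lower in mESCs, and 33 of 369 (8.94%) were higher and 20 (5.42%) lower in MEFs, where DESeq2 selected 46 and 51. In that order the lists had median log2 fold changes of 0.34, 0.13 and 0.02 for mESCs and of -0.16, -0.62 and -0.03 for MEFs.

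The genes most like Saa3 were sought by Pearson correlation of log2 CPM over libraries among 19312 genes, as a description without a test. Over the 11 libraries they were Fads6 (r = 0.959), Msln (0.957), Kpna2 (0.949), Ddc (0.947) and Arl4d (0.945). Msln, mesothelin, is a mesothelial marker, and none of the other 8 members was among these 5. Over the 6 MEF libraries they were Nod1, Slc35c1 and Mst1r (each 0.998) and Ddc and Mdfic (each 0.997). In MEFs the points share the 2 genotype groups, between which all of these genes differ, so a high r says little beyond that difference. The 11 libraries likewise fall into 4 groups among which Saa3 differed widely, so the same limit holds for those r values.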

How the data were processed

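RNA was extracted by the authors from 5 mESC and 6 MEF cultures and sequenced as TruSeq Stranded mRNA libraries. Each replicate is a separate blastocyst or embryo line by the study's methods. 1 further WT mESC dataset, left out by the authors after principal component analysis, was not analysed here. Per the submitters' processing notes, reads were demultiplexed with bcl2fastq 2.17.1.14, trimmed with cutadapt 1.10, mapped to mm10 with STAR 2.5.3a, counted with HTSeq 0.6.1p1 and normalized with DESeq2 1.16.1; the annotation and the strand setting of the counting are not given in the sources used here. The deposited tables hold raw read counts per gene and, as a normalized signal, counts over the library's size factor and over each gene's median transcript length in kilobases. The deposited columns with fold changes and p-values of the authors' own comparisons were not used.

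Counts were fitted with edgeR 4.0.16 in R 4.3.3 (TMM, filterByExpr, glmQLFit and glmQLFTest), once per cell type for genotypes (17800 and 15958 genes tested) and once over all 11 libraries for the WT cell types and for the difference of the effects (19326 genes), with Benjamini-Hochberg adjustment over all genes tested. SEs were taken as the size of the log2 fold change over the root of F. CPM used all counts of a table and TMM factors of the 11 libraries. Correlations used log2 CPM with a prior count of 2. The script was tested on simulated data. The p-values measure the spread between cultures of 1 laboratory.

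The members and the lists were chosen with earlier results of these data known. The text names all 9 members with every library, of each list the selected genes with the largest log2 fold change (at most 4 a list and comparison) with defining genes in a clause, the 5 genes most like Saa3, and Atxn7l3. Beyond that rule, C1qa, C1ra and C1s1 in MEFs, C2 in mESCs, Saa4, C3ar1, Il6, Tnf, Lif, Stat3, Cebpb, Bcl3 and Serpina3n were named after their values were seen. C1qa, C1qb, C1qc and Fgb stand in a pathway list and a marker list. 1 gene that enters the counts and medians of the lists is not reported here by name.

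In MEFs, deviations from the group means of libraries with the same number correlated over 15958 genes at 0.473, 0.161 and 0.240. The numbers were taken to pair these libraries on that basis alone, since the labels state no litter, batch or pairing. The fit with the replicate block is given where it changes a call. Alternatives were other normalizations (RLE, upper quartile), no filter or at least 10 counts in every library, DESeq2 1.42.0, the replicate block, 1 fit of all libraries, no expression threshold, the 5 WT libraries alone, leaving out each library and, chosen after seeing the data, a correction for GC content. Promoters and their windows came from RefSeq (GRCm38.p6). A planned alignment of the serum amyloid A proteins was not run.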

Additional observations from a re-analysis of the deposited data

Results flagged for a closer look

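The effect of the genotype label differed between MEFs and mESCs for the 3 members, the 9 genes of the lists by role and Atxn7l3 given here, by the difference of the log2 fold changes in 1 edgeR fit of all 11 libraries (MEF minus mESC, adjusted p over all genes tested, with a difference of at least 1 in size). Of all 19326 genes tested, 2180 (11.3%) differed by that measure, among them 5 of the 6 mesothelial markers. The lists by role had 98 genes tested in that fit. The 9 genes given here are read beside that 11.3% and do not set the lists apart. For Saa3 the difference was 4.37, for C3 4.87 and for Serping1 2.94, and because these members were chosen on the genotype effect no p is given for them. Il1r1 differed by 3.96 (SE 0.77, adjusted p = 0.0144), Bcl3 by 2.73 (SE 0.75, adjusted p = 0.0422), C1s1 by 3.69 (SE 1.03, adjusted p = 0.0434) and Tnfrsf1b by 1.84 (SE 0.48, adjusted p = 0.0355). The value for Lrp1 was -2.16 (SE 0.62, adjusted p = 0.0483), for Cd59a -2.56 (SE 0.60, adjusted p = 0.0258), for Il17rc -3.13 (SE 0.51, adjusted p = 0.00688) for Slc22a17 -4.18 (SE 0.76, adjusted p = 0.011) and for Serpina3n -4.6 (SE 1.28, adjusted p = 0.0432). Atxn7l3 itself differed by 5.97 (SE 0.58, adjusted p = 0.000664 in edgeR), with its RNA nearly lost in mESCs and at 60.5% of WT in MEFs. No group held more than 3 libraries, so no check for a library far from its group was made.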

How the results depend on the processing

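Counts are given as higher and lower. In mESCs, no filter on low counts gave 2 members and 10 other list genes as higher, and 1045 and 739 of all genes. DESeq2 gave 2 members, 12 and 2 other list genes, and 1221 and 858 of all genes. 1 fit of all 11 libraries gave 0 members, 0 and 0 other genes, and 135 and 181 of all genes, and Saa3 lost its call there (2.20). No expression threshold gave 607 of all genes as lower, and the GC correction 1 and 0 other genes. In MEFs, no filter gave 7 other genes as lower, at least 10 counts in every library 320 of all genes as lower, the GC correction 2 other genes as lower, and 1 fit of all libraries 9 other and 1257 of all genes as lower. DESeq2 gave 11 and 10 other genes, 1201 and 1573 of all genes and 1 member, C4b, as lower. Between WT cell types, at least 10 counts in every library, under which C3 and Saa2 were not tested, gave 0 and 1 members, 31 and 5 other genes, and 2702 and 2480 of all genes, and the GC correction turned C4b to 0.03.

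With the replicate block, MEFs gave 10 and 7 other genes, 1073 of all genes as lower, and 1.58 for Hp. In mESCs same-numbered libraries correlated at 0.00777 and -0.172. The deviations of the 2 WT libraries mirror each other, so these values cannot show whether the libraries pair. The block gave 7 other genes as higher in mESCs. The block changed no other call of a member but that of C3 in MEFs.

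Without 1 library, mESCs gave 0 to 1 members as higher, 0 to 6 and 0 to 2 other genes, and 0 to 794 and 0 to 728 of all genes. MEFs gave 1 to 2 members as higher, 0 to 9 and 0 to 4 other genes, and 118 to 885 and 68 to 897 of all genes. Between WT cell types 1 to 2 and 2 to 3 members, 45 to 60 and 6 to 13 other genes, and 2936 to 4731 and 3342 to 4569 of all genes were called, Saa3 counted. Over the same omissions Hp in MEFs ran from -5.69 to 5.31, turning sign without WT replicate 2, and Hp between WT cell types turned to -0.22 without WT MEF replicate 2. C4b between WT cell types ran from -1.70 to 0.52 and turned sign without 3 of the libraries (0.23 without WT mESC replicate 1, 0.29 and 0.52 without WT MEF replicate 1 or 3). Beyond the number of libraries and of genes tested, the cause of these changes was not tested. Levels at or under 3 counts, as for Lcn2 and Cfb in most libraries, are limited by depth.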
